A study of Homo sapiens with 6 samples.

Results

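The HOX genes of clusters A to D were examined in A549, a cell line of human lung adenocarcinoma that is in wide use, on 6 Affymetrix arrays of 1 colour that measure polyadenylated transcripts near their 3′ end. In 3 arrays, labelled shTIGD1, the cells had received a lentivirus with a short hairpin RNA (shRNA) against TIGD1, a gene derived from a transposase, and in the other 3, labelled shControl, a lentivirus with a negative control hairpin. The time between infection and harvest, the promoter of the hairpin and whether the arrays came from separate cultures were not stated in the labels, so the p-values measure the spread between these arrays, which may be technical. A single hairpin sequence stands for each group, and arrays limit the precision by their number. A gene was a member when the platform's annotation gave it as the single symbol of a probe set and the symbol was HOX followed by A, B, C or D and a number. This gave 29 genes with 49 probe sets, of 18265 genes tested. They are all 10 HOXB, all 9 HOXC and all 9 HOXD genes of the RefSeq gene table, but of 11 HOXA genes only HOXA2. The other 10 HOXA genes were not analysed here. Each gene was read from its brightest probe set, the one with the highest mean over the 6 arrays, and 13 of the 29 genes had several.

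HOX genes encode transcription factors that bind DNA through a homeodomain and give cells of the embryo their place along the axis from head to tail. They lie in 4 clusters on different chromosomes (A on 7, B on 17, C on 12, D on 2), where genes at one end (low numbers) act further towards the head and genes at the other end (high numbers) further towards the tail, and genes of the same number in different clusters are paralogues. Most HOX proteins bind DNA together with the TALE homeodomain proteins PBX and MEIS, and Polycomb and MLL complexes keep the clusters silent or active as cells divide. The lung keeps expressing part of the HOXA and HOXB clusters in adult life, and many carcinomas express HOX genes of other body levels.

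TIGD1 itself was not called lower. Its single probe set read 6.96, 6.93 and 6.85 (log2 signal) on the arrays labelled shControl and 6.88, 6.84 and 6.86 on those labelled shTIGD1, and the groups overlapped. The log2 difference, shTIGD1 minus shControl, was -0.06 with an SE of 0.04 (limma adjusted p = 0.389, 95% interval -0.16 to 0.04; exact permutation test, two-sided, p = 0.3, which in a design of 3 against 3 cannot go below 0.1). Every direction below is therefore that of the labels. In bulk RNA, fewer cells with a transcript and less of it per cell cannot be told apart. KRT8 and KRT18, keratins of simple epithelium, read 13.52 and 14.17 over the 6 arrays. Of 28 measured markers of immune and endothelial cells, 19 had a mean under 5, among them the leukocyte gene PTPRC (3.14), and their median was 4.72, while the lung lineage factor NKX2-1 read 5.85. The other 9 markers were at or above 5, among them CD14 (8.21), CD68 (7.38), CD79A (6.67), TIE1 (5.53) and VWF (5.39), which is as high as several HOX genes. The mark of 5 belongs to the rule by which the members were described; members under it are called near background below, and a mean above it does not show that a gene is expressed.

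The sequences that define the groups, as the labels give them, are 19 bases long.
shTIGD1: ctgctaacacaacatccat
shNC, the control: ttctccgaacgtgtcacgt
Promoters are shown for HOX genes on which the results below turn and for which RefSeq gave an entry. The window is the 250 bases before the start of the gene on its own strand (GRCh38.p14). Capitals mark TAAT, the core that most homeodomains bind, and TGATNNAT, a composite site of PBX with HOX proteins, each searched on both strands and allowed to overlap. The first belongs to HOXC4 and is the same entry as that of HOXC5 (chr12:54016638-54016887, plus strand), since these genes share a start in RefSeq. The second belongs to HOXD11 (chr2:176107030-176107279, plus strand). The third belongs to HOXB1 (chr17:48531012-48531261, minus strand), a gene known to maintain its own expression through PBX and HOX sites, and is shown because HOXB1 lay near background here.
HOXC4: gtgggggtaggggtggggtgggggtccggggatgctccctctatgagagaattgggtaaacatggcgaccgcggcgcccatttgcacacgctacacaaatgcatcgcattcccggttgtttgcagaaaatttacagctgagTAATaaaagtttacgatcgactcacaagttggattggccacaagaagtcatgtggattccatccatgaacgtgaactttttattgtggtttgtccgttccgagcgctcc
HOXD11: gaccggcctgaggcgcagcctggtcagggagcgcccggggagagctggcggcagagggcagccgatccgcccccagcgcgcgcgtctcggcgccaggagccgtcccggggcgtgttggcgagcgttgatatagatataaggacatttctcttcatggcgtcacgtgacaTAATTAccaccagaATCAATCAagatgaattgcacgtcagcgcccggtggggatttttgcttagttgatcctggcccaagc
HOXB1: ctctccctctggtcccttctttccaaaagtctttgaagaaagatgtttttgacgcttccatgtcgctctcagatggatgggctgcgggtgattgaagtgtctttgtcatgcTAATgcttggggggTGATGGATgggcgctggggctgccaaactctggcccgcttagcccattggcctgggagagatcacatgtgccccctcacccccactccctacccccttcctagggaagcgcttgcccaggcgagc
TGATNNAT was found once in the HOXD11 and HOXB1 windows and 0 times in that of HOXC4, and 6.49% of 34943 promoter windows of this length held it. TAAT was held by 47.5% of them. The HOXC4 window held 14 CG pairs, that of HOXD11 held 23 and that of HOXB1 held 7, against a median of 11 over all windows. A match is a run of letters and says nothing about binding in these cells.

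More HOX genes were higher than lower in the arrays labelled shTIGD1, and every difference was small. Of 29 members, 7 rose (24.1%): HOXB2, HOXB3, HOXB6, HOXB13, HOXC4, HOXC6 and HOXD11. Only HOXC13 fell (3.45%). Over all 18265 genes, 9.79% passed as higher and 14.0% as lower (limma, Benjamini-Hochberg adjusted p under 0.05), so in this fit the members' share was above the background in rises and below it in falls. The largest rise was 1.34-fold, in HOXB2, and 0 members passed with a difference of at least 1.5-fold, as 0.794% of all genes did upwards and 0.312% downwards. The median log2 difference over the 29 genes was 0.09, where that over all genes was -0.04. The 8 called genes were all among the 21 members with a mean of at least 5. In this brighter class 13.3% of all genes passed as higher and 18.4% as lower, against 7 and 1 of 21 members (33.3% and 4.76%). These shares are descriptions, and whether the members differ from other genes was not tested.

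**Figure D1:**
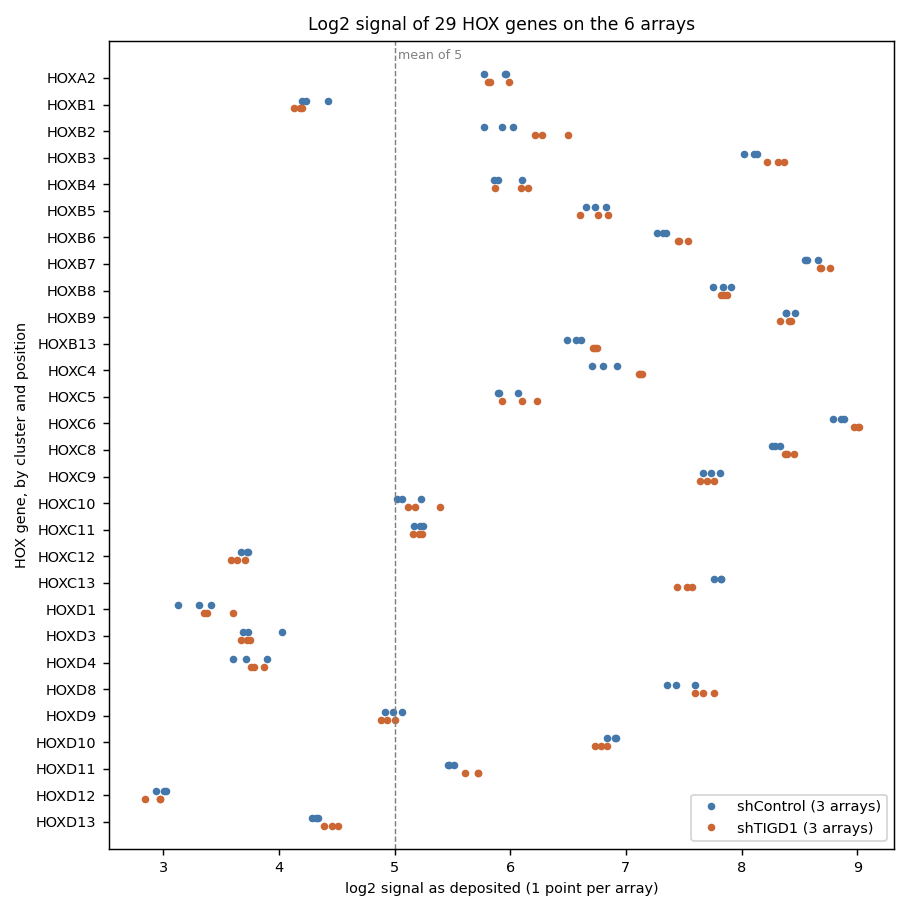
Log2 signal (horizontal axis) of each of the 29 HOX genes on each array, 1 point per array, blue for the 3 arrays labelled shControl and orange for the 3 labelled shTIGD1; the dashed line marks a mean of 5. The groups stand apart for HOXB2, HOXC4 and HOXC13 among others, and 8 genes have a mean under 5; the place of one gene against another on this axis does not compare their amounts of transcript.

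The count of rises depended on every array. It was 3, 2 and 2 without shControl replicate 1, 2 and 3, and 1, 4 and 3 without shTIGD1 replicate 1, 2 and 3, while the share of all genes called higher lay between 6.44% and 8.07%. As shares of the 29 members these counts are 10.3%, 6.90% and 6.90%, then 3.45%, 13.8% and 10.3%. In 3 of the 6 fits, without shControl replicate 2, shControl replicate 3 or shTIGD1 replicate 1, the HOX share was below that of all genes (8.07%, 6.95% and 6.44%), so the higher share of rises is lost there. HOXC4 and HOXC13 passed in each of these 6 fits, HOXB2 in 3 and HOXD11 in 2, HOXB3 and HOXB13 in 1 each, and HOXB6 and HOXC6 in 0. The direction against unchanged transcripts also rests on the scaling of the arrays. Levelling on the spiked hybridization controls moved the median of all genes from -0.04 to 0.17, with 22 members higher (75.9%, against 47.8% of all genes) and 0 lower. Levelling on poly-A controls moved it to 0.29, with 26 members higher (89.7%, against 68.1%) and 0 lower. The 7 rises stayed rises under both, and the fall of HOXC13 became -0.08 and 0.03.

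In the HOXB cluster 4 of 10 genes rose (40.0%) and 0 fell, with a median log2 difference of 0.10. Over all genes 9.79% passed as higher and 14.0% as lower. HOXB2, which patterns the hindbrain, read 5.77, 6.02 and 5.93 in shControl and 6.27, 6.50 and 6.22 in shTIGD1. All 3 shTIGD1 arrays lay above all 3 shControl arrays, and the means were 5.91 ± 0.13 and 6.33 ± 0.15 (SD, n = 3 each). The log2 difference of 0.42 (SE 0.09, 95% interval 0.20 to 0.65, limma adjusted p = 0.0219) is a size that 3.09% of all genes reached in either direction. HOXB2 was read from its only probe set. Its call ended without shControl replicate 1 (adjusted p = 0.0595), without shControl replicate 3 (adjusted p = 0.0565) and also when shTIGD1 replicate 1 was omitted (0.0513). The adjacent HOXB3, also a gene of the hindbrain and neck region, read 8.02, 8.11 and 8.13 against 8.37, 8.32 and 8.22, again without overlap. Its brightest probe set rose by 0.21 (SE 0.05, adjusted p = 0.0290). The other 3 HOXB3 probe sets had log2 differences of -0.03, -0.12 and -0.07, and none of them passed (adjusted p = 0.635, 0.153 and 0.624 over all probe sets), so the probe sets of HOXB3 disagree. The suffix of the brightest one, _s, marks probes that match more than 1 transcript, possibly of different genes, in the array maker's scheme. The probe sets with -0.12 and -0.07 carry the same suffix, so it does not set the brightest one apart from them.

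HOXB6, from the middle of the cluster, read 7.27, 7.32 and 7.35 in shControl and 7.53, 7.45 and 7.46 in shTIGD1. The groups did not overlap, and the log2 difference was 0.17 (SE 0.04, adjusted p = 0.0297), from its single probe set. HOXB7, a gene often overexpressed in carcinomas, read 8.54, 8.66 and 8.57 against 8.76, 8.68 and 8.69. The lowest shTIGD1 array lay just above the highest shControl array, and the log2 difference of 0.12 did not pass (SE 0.05, adjusted p = 0.110), though it did with trend and robust settings (0.0394) and among genes with a mean of at least 6 (0.0431). HOXB13, at the far end of the cluster and best known as a factor of the prostate lineage, read 6.61, 6.49 and 6.57 against 6.75, 6.73 and 6.72, a rise of 0.18 (SE 0.04, adjusted p = 0.0274). The 4 probe sets of HOXB13 ranged from -0.10 to 0.23, and only the brightest passed.

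The remaining HOXB genes did not pass, and their groups overlapped except for HOXB1. HOXB4, which expands blood stem cells when forced on, read 6.10, 5.89 and 5.86 in shControl and 6.15, 6.09 and 5.87 in shTIGD1 (log2 difference 0.09, 95% interval -0.14 to 0.32). HOXB5, a gene of the developing lung mesenchyme, read 6.65, 6.83 and 6.74 against 6.84, 6.76 and 6.60 (0.00, interval -0.18 to 0.18). The interval of HOXB4 holds the size of the rises of both HOXB3 and HOXB6, and that of HOXB5 holds the size of HOXB6 alone. HOXB8 read 7.75, 7.84 and 7.91 against 7.85, 7.82 and 7.88 (0.02, interval -0.10 to 0.13). HOXB9, which lies next to it, read 8.46, 8.39 and 8.39 against 8.33, 8.42 and 8.41 (-0.02, interval -0.12 to 0.08). For these genes of the middle to rear part of the cluster the intervals leave out the size seen in HOXB6. HOXB1, near background, read 4.43, 4.20 and 4.24 against 4.20, 4.18 and 4.13. Its groups barely stood apart, with 4.202 for the lowest shControl array and 4.201 for the highest shTIGD1 array.

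**Figure D2:**
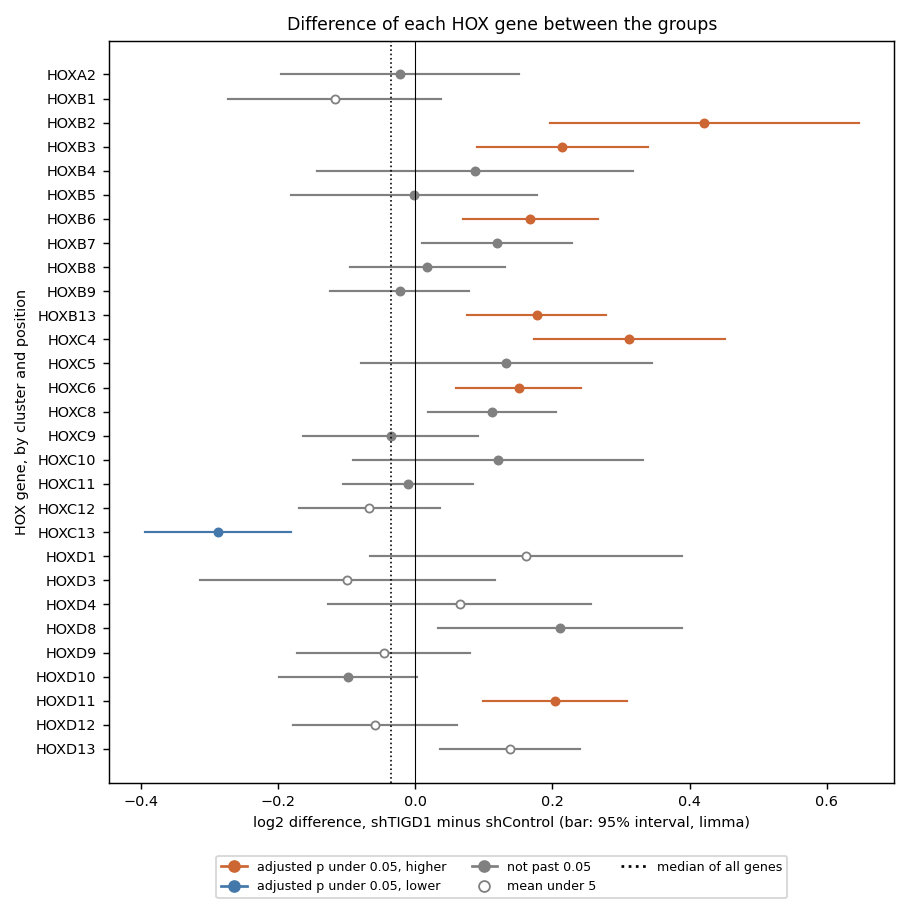
Log2 difference of each HOX gene, shTIGD1 minus shControl, with its 95% interval from limma; orange genes passed as higher, blue as lower and grey did not pass, open circles have a mean under 5, and the dotted line is the median of all genes (-0.04). The points run from -0.29 for HOXC13 to 0.42 for HOXB2.

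In the HOXC cluster 2 of 9 genes rose (22.2%) and 1 fell (11.1%), where 9.79% and 14.0% of all genes did. The rises lay towards one end and the fall at the other, and a pattern along the cluster was not tested. HOXC4, which in B cells drives the gene of the antibody-mutating enzyme AID, read 6.80, 6.71 and 6.92 in shControl and 7.13, 7.12 and 7.11 in shTIGD1. The shTIGD1 arrays agreed closely with each other and lay above all shControl arrays (means 6.81 ± 0.11 and 7.12 ± 0.01, SD, n = 3 each). The rise of 0.31 (SE 0.06, 95% interval 0.17 to 0.45, adjusted p = 0.0120) is 1.24-fold and comes from the only HOXC4 probe set. HOXC6, which is active in mammary and prostate epithelium, read 8.86, 8.88 and 8.79 against 9.01, 8.97 and 9.01, and its brightest probe set rose by 0.15 (SE 0.04, adjusted p = 0.0331). A second HOXC6 probe set passed too, with 0.22 (SE 0.05, adjusted p = 0.0265 over all probe sets), and the third, near background, gave 0.08. HOXC5 shares its start with HOXC4, and its values of 5.90, 5.90 and 6.07 overlapped with 6.23, 6.10 and 5.93 (0.13, interval -0.08 to 0.35).

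HOXC13, at the opposite end and needed for the keratins of hair and nail, was the single HOX gene that fell, by its only probe set. It read 7.82, 7.76 and 7.82 in shControl and 7.53, 7.44 and 7.57 in shTIGD1, and the groups stood apart by more than the range within either. The means were 7.80 ± 0.03 and 7.51 ± 0.06 (SD, n = 3 each), and the log2 difference was -0.29 (SE 0.04, 95% interval -0.39 to -0.18, adjusted p = 0.00618), the lowest adjusted p of the 29 genes. Between the ends, HOXC8 read 8.26, 8.33 and 8.29 against 8.45, 8.37 and 8.40, without overlap (0.11, SE 0.04, adjusted p = 0.0844, and 0.0417 when only genes with a mean of at least 5 were tested). HOXC9 read 7.81, 7.73 and 7.66 against 7.76, 7.64 and 7.70 (-0.04), and HOXC10, a gene of the hindlimb level, read 5.07, 5.23 and 5.02 against 5.11, 5.18 and 5.39 (0.12). HOXC11 read 5.22, 5.25 and 5.17 against 5.21, 5.16 and 5.23 (-0.01). These 3 overlapped between the groups and did not pass. HOXC12 was near background, between 3.58 and 3.73 on all arrays.

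In the HOXD cluster 1 of 9 genes rose (11.1%, near the 9.79% of all genes), and 6 of 9 had a mean under 5. HOXD11, which shapes the forearm and the kidney together with its HOXA paralogue, read 5.46, 5.47 and 5.51 in shControl and 5.72, 5.61 and 5.73 in shTIGD1. The groups did not overlap, and its single probe set rose by 0.20 (SE 0.04, adjusted p = 0.0194). The call ended with limma's trend and robust settings (adjusted p = 0.0635) and in 4 of the 6 fits with an array left out. HOXD8 read 7.60, 7.35 and 7.43 against 7.66, 7.60 and 7.76 with its brightest probe set (0.21, SE 0.07, adjusted p = 0.0876), and its other probe set gave 0.13. The brightest HOXD8 probe set carries the suffix _x and the other _s. How much of either signal comes from other transcripts was not tested. HOXD8 did pass with trend and robust settings (adjusted p = 0.0179), with the mean of its probe sets (0.0209), among genes with a mean of at least 6 (0.0343) and without shControl replicate 1 (0.0366). The HOXD8 groups touched, since the lowest shTIGD1 array equalled the highest shControl array to 2 decimals. HOXD10, a known target of miR-10b, read 6.91, 6.84 and 6.90 against 6.79, 6.74 and 6.84 with its brightest probe set (-0.10, adjusted p = 0.145). Its second probe set read 5.95, 6.24 and 6.10 against 6.36, 6.46 and 6.42 and passed as higher (0.31, SE 0.08, adjusted p = 0.0294 over all probe sets). The probe sets of HOXD10 thus point in opposite directions, and no direction is given for this gene.

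**Figure D3:**
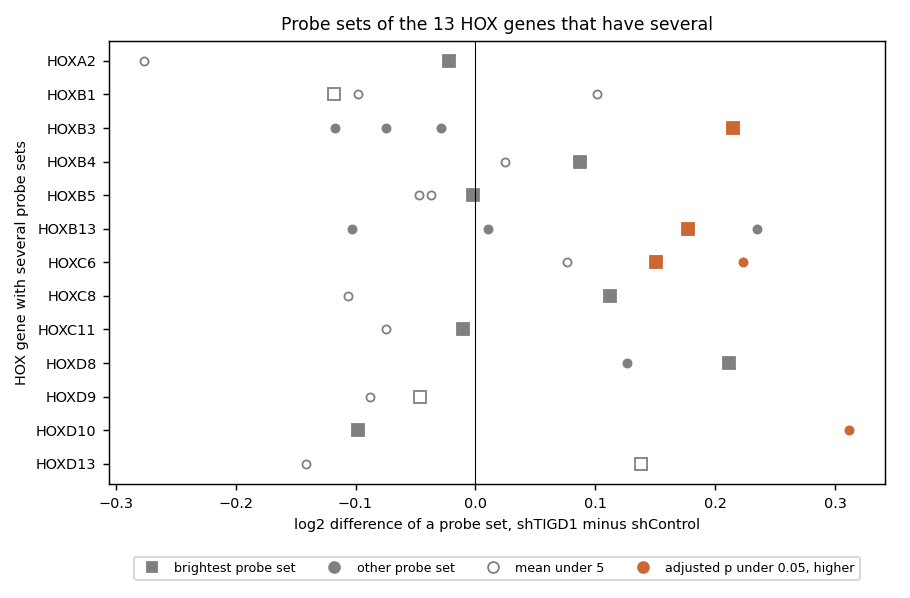
Log2 difference of each probe set for the 13 HOX genes with several; squares are the brightest probe sets, circles the others, open symbols have a mean under 5 and orange ones passed as higher over all probe sets. HOXB4, HOXC6 and HOXD8 have all probe sets above 0, while those of HOXB3 run from -0.12 to 0.21 and those of HOXD10 from -0.10 to 0.31.

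Over all 49 HOX probe sets, 9 passed as higher (18.4%) and 1 as lower (2.04%), where 11.7% and 10.8% of 45336 probe sets did. Of the 9, 7 are the brightest probe sets already called above, as is the 1 lower. Of the 20 other probe sets 2 passed as higher (10.0%), 1 each of HOXC6 and HOXD10, and 0 as lower, a share near that of all probe sets. Most of these 20 had a mean under 5, where fewer genes pass. The 2 that passed had means of 8.47 (HOXC6) and 6.26 (HOXD10). HOXA2, a gene of the second pharyngeal arch and the only HOXA gene analysed here, read 5.95, 5.77 and 5.97 in shControl and 5.99, 5.83 and 5.81 in shTIGD1, with overlap (-0.02, interval -0.20 to 0.15). Its second probe set, with a mean of 4.43, gave -0.28 (adjusted p = 0.119 over all probe sets), and the mean of both -0.15, so its size rests on the probe set.

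The 8 members near background (HOXB1, HOXC12, HOXD1, HOXD3, HOXD4, HOXD9, HOXD12 and HOXD13) had means between 2.96 and 4.96, and 0 passed in either direction by limma (1 higher and 0 lower at an unadjusted p under 0.05), where 1.53% and 3.67% of all genes under 5 passed. Differences at this level understate any change in transcript. The largest were in HOXD1 (0.16, interval -0.07 to 0.39), HOXD13, the gene of the digits (0.14, interval 0.04 to 0.24, adjusted p = 0.0617), and HOXB1 (-0.12). HOXD13 did not overlap between the groups, at 4.34, 4.33 and 4.29 against 4.51, 4.39 and 4.46, but its second probe set gave -0.14. Further probe sets of HOXB1 gave -0.10 and 0.10, so they differ in sign. HOXD9, at a mean of 4.96, was the member just under the mark, and HOXC10, at 5.17, the one just above it.

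By place along the axis, members with a mean of at least 5 were split by paralogue group. Of the 10 genes of groups 4 to 8, 9 had a difference above 0, with a median of 0.13, and 3 passed as higher (HOXB6, HOXC4 and HOXC6) and 0 as lower. Groups 1 to 3 held 3 such genes, with a median of 0.21, of which HOXB2 and HOXB3 rose. Groups 9 to 13 held 8, with a median of -0.02, and 2 rose (HOXB13 and HOXD11) and 1 fell (HOXC13). As shares, 66.7% of groups 1 to 3, 30.0% of groups 4 to 8 and 25.0% of groups 9 to 13 passed as higher. As lower it was 0%, 0% and 12.5%. Over all genes with a mean of at least 5 the shares were 13.3% higher and 18.4% lower. Whether the paralogue classes differ was not tested. Over all 29 members the groups of arrays stood apart for 10 genes upwards (34.5%) and 3 downwards (10.3%), against 16.9% and 25.5% of all genes. Among those with a mean of at least 5 it was 9 upwards (42.9%) and 2 downwards (9.52%) of 21, against 22.5% and 31.7%.

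The paralogues of group 8 are known targets of miR-196, whose genes lie inside the HOX clusters. The mature strands from RefSeq (GRCh38.p14) are shown with the seed, bases 2 to 8, in capitals, which is shared.
miR-196a-5p: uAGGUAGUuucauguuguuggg
miR-196b-5p: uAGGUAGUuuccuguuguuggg
No probe set of these miRNAs was measured here. Of their HOX targets of group 8, HOXB8 (0.02), HOXC8 (0.11) and HOXD8 (0.21) had differences that did not pass, as described above.

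Inside the clusters, 2 further transcripts of a list of 27 were measured, and neither passed. HOXB-AS3, a non-coding transcript of the HOXB cluster, had a log2 difference of 0.05 (SE 0.13), and PRAC1, which lies between HOXB9 and HOXB13, one of -0.11 near background. Next to the clusters, the 3 nearest tested genes on each side were read, 24 in all. Of these 6 rose (25.0%) and 0 fell, with a median of 0.08, where 9.79% of all genes and 13.3% of those with a mean of at least 5 passed as higher, and 14.0% and 18.4% as lower. HOXC had 4 of the 6: CALCOCO1 (0.23, SE 0.05, adjusted p = 0.0225) and ATF7 (0.33, SE 0.04, adjusted p = 0.00219) beyond HOXC13, and SMUG1 (0.17, SE 0.04, adjusted p = 0.0359) and CBX5 (0.23, SE 0.04, adjusted p = 0.00830) beyond HOXC4. CBX5 encodes the heterochromatin protein HP1 alpha, and SMUG1 a uracil glycosylase of DNA repair. All 6 probe sets of CALCOCO1 were above 0, whereas 3 of 5 for ATF7, 1 of 2 for SMUG1 and 1 of 7 for CBX5 had the opposite sign of the brightest. The others were HIBADH beside HOXA (0.23) and LNPK beside HOXD (0.33). Beside HOXB, 0 of 6 passed by limma (2 higher and 0 lower at an unadjusted p under 0.05).

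**Figure D4:**
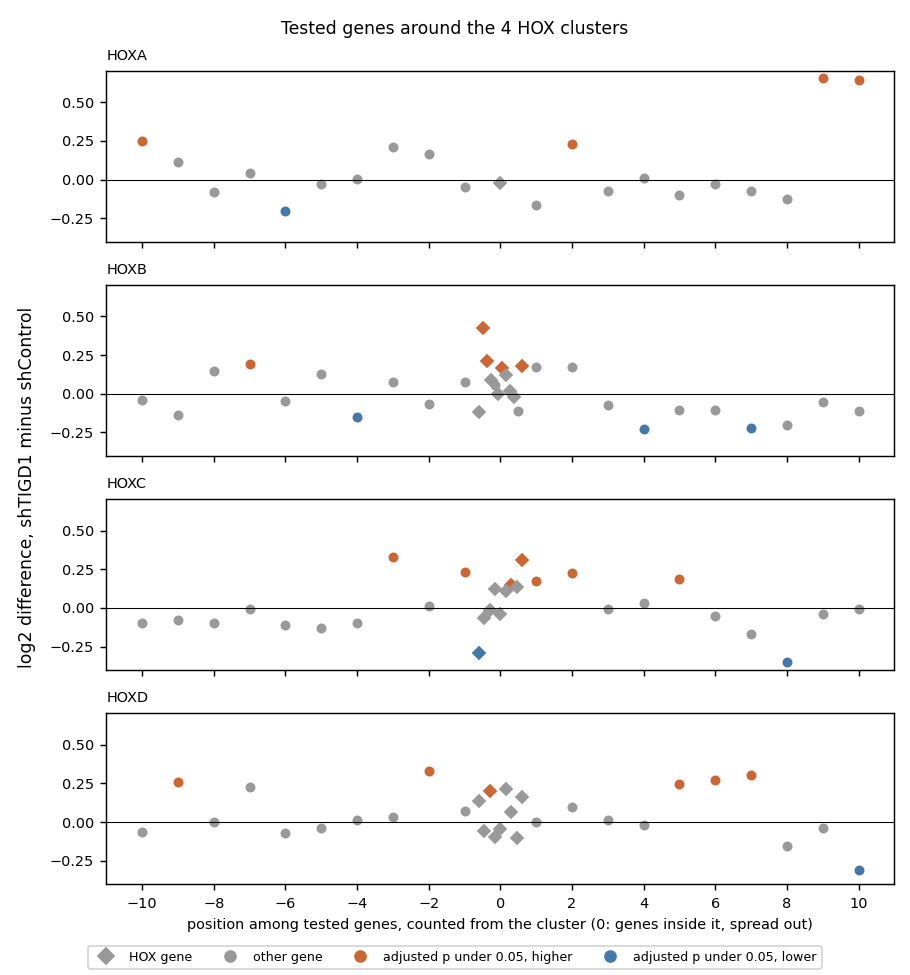
Log2 difference of HOX genes (diamonds) and of the 10 nearest tested genes on each side of each cluster (circles) against their order along the chromosome; orange passed as higher and blue as lower. Beside HOXC 5 of 20 neighbours passed as higher and 1 as lower, and the same counts were seen beside HOXD. Beside HOXA it was 4 and 1 and beside HOXB 1 and 3, where 9.79% of all genes passed as higher and 14.0% as lower.

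Lists of partners and regulators of HOX proteins had shares of calls that are read against 9.79% higher and 14.0% lower over all genes, or 13.3% and 18.4% over those with a mean of at least 5. Of 8 measured TALE cofactors (12.5% higher, 12.5% lower), PBX3 rose by 0.17 (SE 0.04, adjusted p = 0.0293) and MEIS3 fell by 0.14 (SE 0.04, adjusted p = 0.0454), with a median of -0.10 over the list. All 3 probe sets of PBX3 lay above 0 and all 3 of MEIS3 below. The MLL and trithorax list, whose complexes keep HOX genes active, had 1 rise and 3 falls of 17 (5.88% and 17.6%), near the background. KMT2A, which encodes MLL1, fell by 0.35 (SE 0.04, adjusted p = 0.00170) with all 8 probe sets below 0, and its partner MEN1 by 0.20 (SE 0.04, adjusted p = 0.0182). KDM6B, a demethylase that removes the Polycomb mark, fell by 0.32 (SE 0.08, adjusted p = 0.0349), and AFF4 of the super elongation complex rose by 0.43 (SE 0.04, adjusted p = 0.00157), although 2 of 6 AFF4 probe sets had the opposite sign. Levelled on the hybridization or poly-A controls, KMT2A stayed below 0 (-0.14 and -0.03), KDM6B went to -0.11 and 0.00, and MEIS3 (0.07 and 0.18) and MEN1 (0.00 and 0.12) no longer lay below 0.

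Polycomb genes had 3 rises and 2 falls of 27 (11.1% and 7.41%), shares at or below those of genes with a mean of at least 5, with a median of 0.01. EED, a core subunit of the complex that writes the mark, fell by 0.31 (SE 0.04, adjusted p = 0.00466), and PCGF3 by 0.28 (SE 0.06, adjusted p = 0.0144). For EED 1 of 4 probe sets had the opposite sign, and for PCGF3 1 of 3, and under the same control levellings EED read -0.11 and 0.01 and PCGF3 -0.07 and 0.04. CBX6 (0.20), PHC3 (0.19) and PCGF5 (0.18) rose, with 3 of 8 probe sets of PHC3 below 0. Among other homeobox genes related to the clusters, MNX1, a factor of motor neurons and pancreas, rose by 0.30 (SE 0.05, adjusted p = 0.00631), GBX1 fell by 0.25 near background (SE 0.05, adjusted p = 0.0167, but -0.04 and 0.07 under the control levellings), and the remaining 9 of 11 did not pass. Retinoic acid induces HOX genes in order along the clusters. Of 11 receptors and handling genes of retinoic acid 0 passed in either direction (0 higher and 2 lower at an unadjusted limma p under 0.05). CYP26A1, a target that degrades retinoic acid, had the largest difference, 0.15 (SE 0.09, adjusted p = 0.281), near background.

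Of 16 immune, 12 endothelial and 10 fibroblast markers, 1 rose (ESAM, 0.33) and 2 fell (ITGAM, -0.19, and COL3A1, -0.56), where ITGAM read 0.02 and 0.13 under the control levellings. These are 2.63% and 5.26% of the 38 markers, and 1 of 2 probe sets of ESAM and 1 of 3 of ITGAM had the opposite sign. Most markers lay near background, with 10 of 16 immune, 9 of 12 endothelial and 8 of 10 fibroblast markers under 5. Of all genes under 5, 1.53% passed as higher and 3.67% as lower, and of those with a mean of at least 5, 13.3% and 18.4%. Summed log2 signals of the immune list lay between 78.34 and 80.34 in shControl and between 78.49 and 78.99 in shTIGD1, those of the endothelial list between 54.35 and 54.90 and between 53.56 and 54.22, and those of the fibroblast list between 42.08 and 42.72 and between 41.49 and 41.90. Of 10 A549 and lung epithelial markers 2 rose (20.0%) and 0 fell by limma (1 lower at an unadjusted p under 0.05). Of the 10, 7 had a difference below 0, and the list's median was -0.02, so the list did not rise as a whole. The 2 that rose were EPCAM and CDH1, by 0.87 and 0.66, more than any HOX gene. Their part in the HOX result was not tested.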

How the data were processed

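Total RNA was labelled with a 3′ amplification kit and hybridised to 6 arrays, 3 per group, grouped by the sample titles. Per the submitters' processing notes GCOS and RMA were used (no version is listed). The deposited table holds log2 signal values by the authors, 49395 probe sets per array; their range was taken to mean base 2, and array medians lay between 6.27 and 6.28. RMA equalises the arrays, so a change shared by most transcripts does not appear. The platform annotation gave 45336 probe sets with 1 gene symbol, 1275 with several and 2682 with none, and 102 control probe sets were left out. The values were not normalised again.

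For each of 18265 genes the probe set with the highest mean was tested, shTIGD1 minus shControl, with limma 3.58.1 (R 4.3.3; lmFit and eBayes) and Benjamini-Hochberg adjustment over all genes, at a threshold of 0.05. The fit was tested on simulated data. Tables were made with Python 3.11.15 and pandas 2.3.3. Every HOX gene may be named: those with a mean of at least 5, and any past the threshold, array by array, and of those under 5 the 3 with the largest differences. Of each further list, up to 4 genes past the threshold with the largest differences are named, or with none past it the 1 with the largest, and the 3 nearest tested genes on each side of a cluster. PCGF5, the fifth Polycomb gene past the threshold, and the marker levels (PTPRC, NKX2-1, keratins, CD14, CD68, CD79A, TIE1, VWF) are given outside this rule, chosen after their values were seen. RefSeq was used for the order of genes, promoters and miRNAs. The HOX genes, lists and tests were chosen with earlier results of these data known. Alternatives changed the choice of probe set, the scaling, the filter, the variance model, the block and the arrays included.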

Additional observations from a re-analysis of the deposited data

How the results depend on the processing

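The count of 7 higher HOX genes became 22 and 26 after levelling on hybridization and poly-A controls, 0 when tested against a 1.2-fold change (0.958% of all genes passed), and 1 to 4 with each array left out. The 1 lower gene became 0 under both levellings and against 1.2-fold. With the replicate number as a block the count of higher genes was 2 (6.90%, against 6.0% of all genes); same-numbered arrays did not deviate together (correlations -0.03, -0.13 and -0.09), so the numbers are not taken as pairs. The HOX median of 0.09 moved to 0.017 with the mean of all probe sets, 0.011 with the second brightest, 0.295 and 0.408 with the levellings, 0.119 among genes with a mean of at least 5 and 0.126 with at least 6, and 0.055 to 0.097 with each array left out. Under the 2 levellings the sign turned for TIGD1 (0.15 and 0.27), HOXA2 (0.19 and 0.30), HOXB5 (0.21 and 0.32), HOXB9 (0.19 and 0.30), HOXC9 (0.17 and 0.28), HOXC11 (0.20 and 0.31) and HOXD10 (0.11 and 0.22), and for HOXC13 under poly-A controls (0.033). TIGD1 then passed as higher in the arrays labelled shTIGD1 (limma adjusted p = 0.0388 and 0.0121), as 47.8% and 68.1% of all genes did. With other probe sets it turned for HOXB3 (-0.001 for the mean, -0.028 for the second brightest), HOXC8 (-0.11, second brightest) and HOXD10 (0.11 and 0.31). With single arrays left out the sign turned, without a call, for HOXA2 (range -0.084 to 0.012), HOXB5 (-0.055 to 0.065), HOXB8 (-0.021 to 0.054), HOXB9 (-0.041 to 0.006), HOXC9 (-0.072 to 0.002) and HOXC11 (-0.033 to 0.010). The causes were not tested. A lone hairpin, 3 arrays per group and signals near background limit what can be seen.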

Other observations

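A wider window around the clusters, 10 tested genes on each side, was chosen after the nearest neighbours had been seen. Of these 80 genes 15 passed as higher (18.8%) and 6 as lower (7.5%) by limma, where 9.79% and 14.0% of all genes did, with a median log2 difference of -0.01. Beside HOXC the count was 5 higher and 1 lower of 20, so the wider window added COPZ1, a coat protein of Golgi vesicles (0.19), to the 4 rises of the nearest genes, and the integrin gene ITGA5 (-0.35) as the fall. The median of these 20 genes was -0.02. Beside HOXA it was 4 and 1 of 20, beside HOXD 5 and 1, and beside HOXB 1 and 3.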
